A study of Mus musculus with 8 samples.

Results

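The genes described here are those of the cytosolic ribosomal proteins, the protein part of the ribosomes that translate nuclear-encoded mRNA, together with the paralogs of some of them. Members were chosen by symbol (Rpl, Rps, Rplp and Rpsa), and rows annotated as pseudogenes were left out, which removed 281 of 373 matching rows. The remaining 92 genes stand among 54091 rows of the table. They hold 42 genes of the large subunit, 31 of the small subunit, the 3 stalk proteins Rplp0, Rplp1 and Rplp2, 8 named paralogs and 8 further copies. Rpl10l, Rpl12-ps2, Rpl21-ps13 and Rps12l1 were at 0 in every library, and the other 88 all passed the filter of a mean normalized count of at least 10.

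The study measured RNA in the white part of the quadriceps of male mice, 11 to 14 weeks old, after 7 days on a 60% high fat diet, with harvest in the morning. Control mice carried the Loxp/Loxp genotype without Cre (libraries 1 to 4). In the others (libraries 5 to 8) CKM Cre removed Acot2, a mitochondrial acyl-CoA thioesterase, in muscle. CKM is muscle creatine kinase, whose promoter is active in heart as well as skeletal muscle, and since only the knockouts carry Cre, its own effect and that of the deletion cannot be told apart. Whether each library is 1 animal is not stated in the labels, and p-values therefore reflect the variation among 8 libraries, which may be technical.

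Each ribosomal protein is needed in about equal amounts, and mRNAs of this family are usually abundant, short and regulated together. Many begin with a run of pyrimidines, the 5′ terminal oligopyrimidine tract, through which mTOR signalling controls their translation. Skeletal muscle and heart also express Rpl3l, a paralog of Rpl3. Rpl3 sits next to the ribosome's catalytic centre, and Rpl3l takes its place in part of the ribosomes of adult striated muscle.

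The libraries held 55283997 to 109101280 reads in genes. Acot2 had 2179, 3348, 4165 and 2166 normalized counts in the controls and 325, 273, 256 and 354 in the knockouts, 10.2% of the control mean. Its log2 difference was −3.24 ± 0.20 (SE), with a limma adjusted p of 4.72e-06 and a two-sided exact permutation p of 0.0286, the smallest that 4 against 4 allows. Acot2 alone among 15657 genes passed an adjusted p of 0.05. The tissue label matched the fibre markers: Myh4, the myosin of fast glycolytic fibres, had 2368101 to 3859813 normalized counts, and Myh7, the slow myosin, had 954 to 15188. The libraries were not alike in slow fibre genes. Myh7 had 15188 in control 3 and 6883 in knockout 6, against 954 to 2881 elsewhere. The mean log2 deviation of 10 slow and oxidative fibre markers from their own means was 1.19 in control 3 and 1.02 in knockout 6. It was −1.14 in control 4 and −0.52 to 0.33 in the rest. Knockout 8 stood apart in heart genes, with 1124 normalized counts of Myl7 and 1648 of Nppa against at most 4.14 and 6.11 elsewhere. Controls 3 and 4 stood apart from the other 6 libraries on the first principal component, which held 34.5% of the variance, and differences between the groups are therefore also given without them.

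In control muscle the ribosomal protein genes spanned a wide range of normalized counts per kb of transcript. Of the 88 tested members, 57 share over 50% of their 50-base windows with other genes or pseudogenes (median 61.7%), so these levels and their order depend on how reads with several matches were counted, which the sources used here do not give. The highest were Rplp1 at 65187 ± 20797 (SD, n = 4), Rps2 at 51727 ± 13349 and Rps14 at 45862 ± 14128. The SDs of these 3 overlap. Rplp1 is an acidic stalk protein that recruits elongation factors, Rps2 lines the mRNA entry channel and Rps14 lies at the platform of the small subunit. The lowest tested members were Rpl36al at 46.9 ± 40.1, Rpl39l at 24.2 ± 17.3 and Rpl24 at 15.3 ± 12.9, again with overlapping SDs. Rpl24 encodes a core large subunit protein. Of its exon bases 47.0% lie in another gene on the same strand, and the part of this overlap in its low count was not tested. The same share was 35.4% for Rpl13a, which had 213 normalized counts per kb.

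Rpl3l ranked 9 of 88 per kb in the controls, at 32360 ± 3776, while Rpl3 ranked 77 at 2825 ± 391. The counted level of Rpl3l per kb was 11.5 ± 0.699 times (SD, n = 4) that of Rpl3 in control muscle. Of the Rpl3 windows 85.6% occur elsewhere and of the Rpl3l windows none, so the fold depends on that choice too. The other paralogs stayed below their partners, with Rpl22l1 at 0.191 ± 0.0260 and Rps27l at 0.341 ± 0.0238 of the partner's level per kb in the controls.

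**Figure D1:**
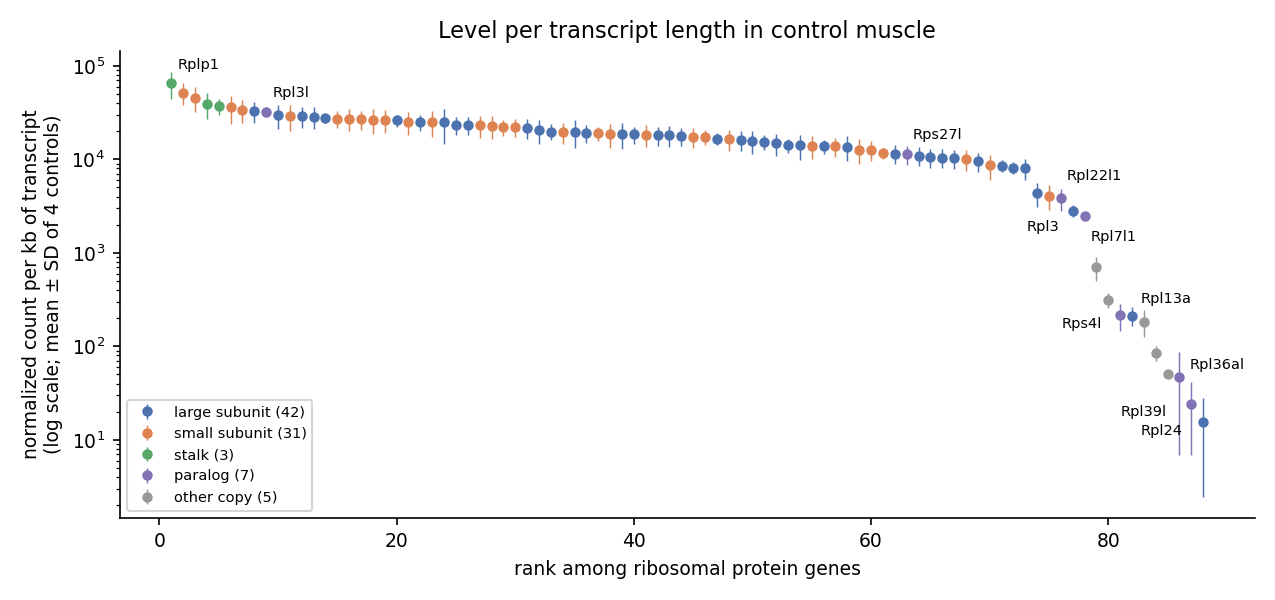
Normalized count per kb of transcript in control muscle (log scale; points are means and bars the SD of 4 controls) against rank for the 88 tested ribosomal protein genes, coloured by class. Rpl3l lies at rank 9 and Rpl3 at rank 77.

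Start-site sequences are shown for Rpl3l and for some of the other members described below. RefSeq start sites on build GRCm38.p6 were found for 65 of the 92 genes. Each line gives the 20 bases on either side of the annotated start, 5′ to 3′ on the gene's strand, with the longest run of C and T in capitals.
Rps9: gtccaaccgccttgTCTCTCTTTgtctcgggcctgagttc
Rplp2: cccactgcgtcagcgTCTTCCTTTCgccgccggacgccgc
Rpl18: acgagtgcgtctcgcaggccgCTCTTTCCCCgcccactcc
Rpl4: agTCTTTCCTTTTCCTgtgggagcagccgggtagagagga
Rpl31: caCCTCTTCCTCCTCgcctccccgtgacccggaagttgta
Rpl22l1: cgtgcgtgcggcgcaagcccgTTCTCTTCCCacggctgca
Rpl3l: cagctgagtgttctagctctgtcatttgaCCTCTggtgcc
These windows are at chr7:3704021-3704060 (Rps9, plus strand), chr7:141447631-141447670 (Rplp2, plus), chr7:45718051-45718090 (Rpl18, plus), chr9:64173367-64173406 (Rpl4, plus), chr1:39367831-39367870 (Rpl31, plus), chr3:28805488-28805527 (Rpl22l1, plus) and chr17:24727806-24727845 (Rpl3l, plus). A run of at least 8 pyrimidines was present in this window in 28 of 65 members (43.1%) and in 15.9% of all 27025 promoters. Every window printed here except that of Rpl3l holds such a run, so these windows do not stand for all 65 members. In Rpl4 and Rpl31 the run ends before the annotated start. The longest run of Rpl3l had 5 bases. Members described below but not printed had runs as short, such as Rpsa with 5, Rpl26 with 4 and Rpl41 with 3. CGGAAG, searched on both strands of the 300 bases from 250 before to 50 after the start, was present in 64.6% of the members and 17.2% of all promoters, and not in that of Rpl3l. The TATA motif TATAAA, searched the same way, was present in 9.23% of members and 14.2% of all promoters. The median log2 difference between knockout and control, described next, was 0.41 for the 28 tested members with the pyrimidine run and 0.38 for the 36 without it.

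Knockout was compared with control to ask whether loss of Acot2 under a high fat diet came with a different level of ribosomal protein mRNA. No single ribosomal protein gene passed the test: 0 of 88 had a limma adjusted p under 0.05, where 0.00639% of all genes tested did. The estimates nevertheless lay mostly on one side. They were above 0 for 86 of 88 members (97.7%; 50.3% of all genes), with a median log2 difference of 0.39 against 0.00 over all genes. At an unadjusted p under 0.05, 50 members (56.8%) were higher and 0 were lower, where 13.6% of all genes were higher and 13.3% lower. At an adjusted p under 0.1 stood 22 members (25%; 12% of all genes). In 16 of 88 members (18.2%) every knockout lay above every control, which held for 6.06% of all genes.

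Ribosomal protein genes together had lower normalized counts in controls 3 and 4 than in the other 6 libraries. Controls 3 and 4 were also the deepest libraries, at 85095812 and 109101280 reads in genes. Knockouts 6 and 8 were the shallowest, at 55283997 and 58359942. The part of depth in this difference was not tested. As a percentage of all counts, the 92 genes together took 1.97, 1.97, 1.38 and 1.25% in controls 1 to 4 and 1.98, 2.16, 2.06 and 2.18% in knockouts 5 to 8. Controls 1 and 2 lay next to the lowest knockout. Gene by gene the picture was the same: 84 of 88 members were lower in both controls 3 and 4 than in both controls 1 and 2, by a median of −0.58 on the log2 scale, and in 79 of 88 controls 3 and 4 were the lowest of the 8 libraries. The median deviation of the members from their own means was 0.14, 0.09, −0.43 and −0.52 in controls 1 to 4 and 0.14, 0.20, 0.20 and 0.23 in knockouts 5 to 8.

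**Figure D2:**
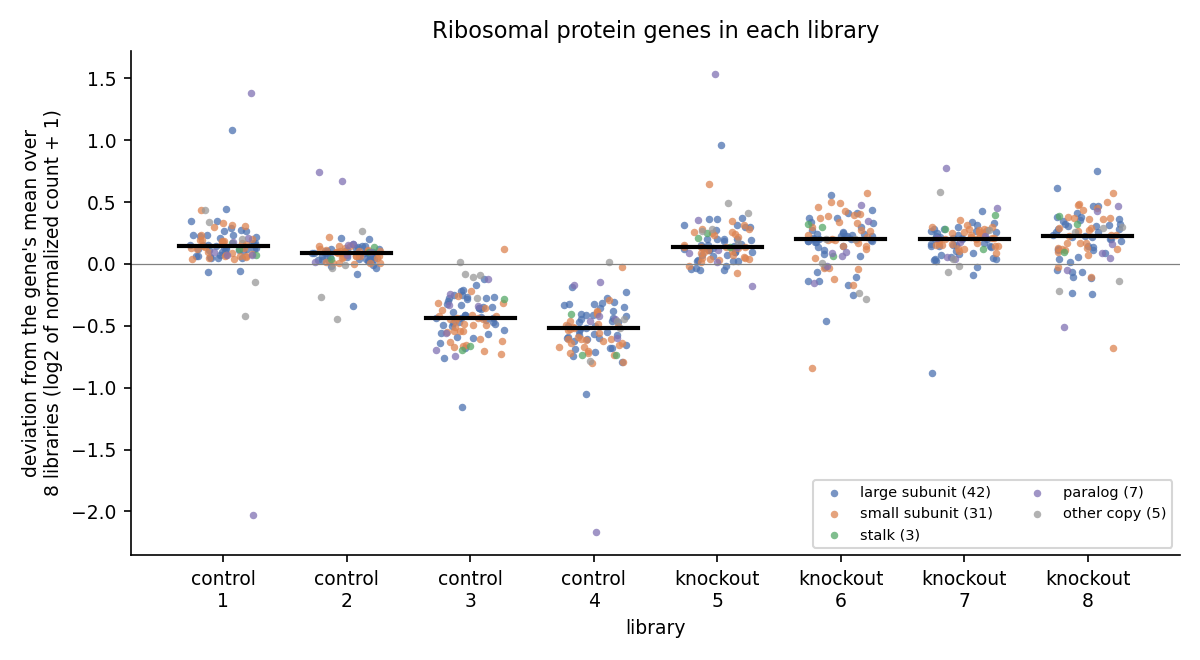
Deviation of each of the 88 tested ribosomal protein genes from its own mean over 8 libraries (vertical axis, log2 of normalized count + 1) in each library, with the median as a bar. The bars of controls 3 and 4 lie at −0.43 and −0.52, and those of the other 6 libraries between 0.09 and 0.23.

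Without controls 3 and 4 the median difference of the members was 0.07, 63 of 88 estimates were above 0 (71.6%; 50.1% of all genes) and 5 of 88 (5.68%) were higher at an unadjusted p under 0.05, where 4.34% of all genes were. Those 5 were Rpl3, Rpl18, Rplp2, Rps9 and Rps3a3, named here after their values were seen. When control 1 or control 2 was left out instead, 36 of 88 members passed an adjusted p of 0.05 in limma in either case, where 11% and 13.1% of all genes passed. With library quality weights the count was 13, where 7.67% of all genes passed. These weights were 0.80, 0.81, 1.03 and 0.77 for controls 1 to 4, so control 3 counted for more than controls 1 and 2. They were 0.97, 0.94, 1.97 and 1.08 for knockouts 5 to 8. All 4 knockouts lay above controls 1 and 2 in 16 of 88 members (18.2%; 8.74% of all genes).

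**Figure D3:**
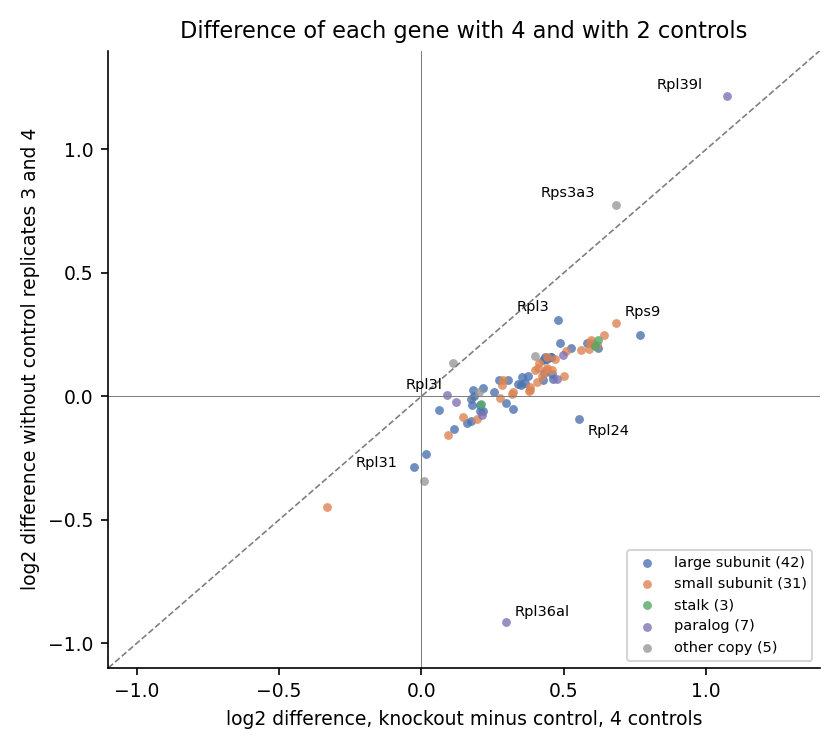
Log2 difference, knockout minus control, of each ribosomal protein gene with 4 controls (horizontal axis) and without controls 3 and 4 (vertical axis); the dashed line marks equal values. Most points lie below the line and close to 0 on the vertical axis, with a median of 0.07 against 0.39.

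Transcript length moved with the difference across the whole table. Of the 88 members, 83 (94.3%) lay in the quartile of shortest transcripts, up to 1584 bases, and their median length was 706 bases against 2626 for all genes. Over all genes the median log2 difference fell by quartile of length from 0.29 in the shortest to 0.08, −0.06 and −0.22 in the longest. The 3812 genes of the shortest quartile that are no members had a median of 0.28, beside 0.39 for the members. Without controls 3 and 4 the order was the other way, at 0.097 for these short genes and 0.069 for the members. The quartile medians were then 0.096, 0.010, −0.028 and −0.056. Spearman's rho between length and difference was −0.44 over 15576 genes and −0.19 over the 88 members, given as a description since genes share the same 8 libraries. With a smooth trend on length and GC content removed in each library, the members' median was 0.10, 61 of 88 estimates were above 0 (69.3%; 52% of all genes), and 19 members (21.6%) were higher at an unadjusted p under 0.05, where 11.5% of all genes were. Rpl29 and Rpl31 were lower at that p, as were 11.1% of all genes. With the trend removed and controls 3 and 4 left out, the median was −0.03 and 35 of 88 estimates (39.8%; 49.3% of all genes) were above 0, while 2 (2.27%; 3.65% of all genes) were higher at an unadjusted p under 0.05.

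**Figure D4:**
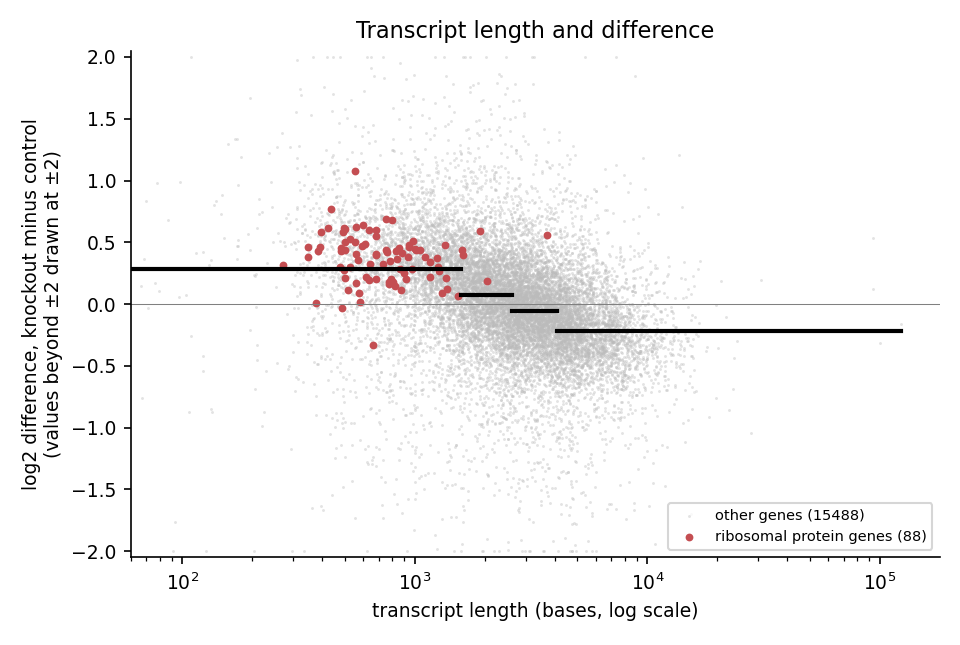
Log2 difference, knockout minus control (vertical axis, values beyond ±2 drawn at ±2), against transcript length in bases (log scale) for 15576 genes, with ribosomal protein genes in red and the median of each length quartile as a bar. The bars step down from 0.29 to −0.22, and most red points lie at short lengths and above 0.

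Among the 31 tested small subunit genes, 30 estimates were above 0, 23 were higher at an unadjusted p under 0.05, and the median was 0.41. Of all genes 50.3% were above 0 and 13.6% higher at that p. With controls 3 and 4 left out, the median was 0.11 and 1 small subunit gene was higher at that p, where 4.34% of all genes were. Rps9, which lies at the mRNA entry site and whose start window is printed above, had 25724, 24523, 15322 and 14087 normalized counts in the controls and 26058, 34227, 29977 and 34026 in the knockouts. All knockouts lay above all controls, knockout 5 only just above control 1. The log2 difference was 0.69 ± 0.19 (SE; limma adjusted p = 0.0796) and 0.30 without controls 3 and 4. Rps14 had 34325, 34932, 21366 and 18895 in the controls and 33939, 43661, 42101 and 45858 in the knockouts, with knockout 5 just below controls 1 and 2. Its log2 difference was 0.64 ± 0.19 (limma adjusted p = 0.0810) and 0.25 without controls 3 and 4.

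Rpsa, the laminin receptor precursor of the small subunit, had 42262, 42028, 27732 and 29333 normalized counts in the controls and 43405, 46964, 46093 and 52327 in the knockouts. The groups did not overlap, with knockout 5 only slightly above control 1, and the log2 difference was 0.44 ± 0.15 (limma adjusted p = 0.0956; 0.16 without controls 3 and 4). Rps13, Rps21 and Rps29 also had no overlap between groups, at 0.47 ± 0.16, 0.59 ± 0.18 and 0.46 ± 0.16, and at 0.15, 0.19 and 0.11 without controls 3 and 4. These 4 genes, like those added for the large subunit below, are named after their values were seen.

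Among the 42 large subunit genes, 41 estimates were above 0, 23 were higher at an unadjusted p under 0.05, and the median was 0.35. Of all genes 50.3% were above 0 and 13.6% higher at that p. With controls 3 and 4 left out, the median was 0.06 and 2 large subunit genes were higher at that p, where 4.34% of all genes were. Rpl18 had 16399, 15647, 9652 and 9015 normalized counts in the controls and 17218, 18983, 18696 and 19413 in the knockouts. The groups did not overlap, and the log2 difference was 0.60 ± 0.18 (limma adjusted p = 0.0810; 0.21 without controls 3 and 4). Rpl39, a small protein of the exit tunnel through which the new chain leaves, had 7443, 8462, 5280 and 5615 in the controls and 8504, 9222, 9270 and 9897 in the knockouts. These groups did not overlap either, although knockout 5 and control 2 were close, and the log2 difference was 0.49 ± 0.14 (limma adjusted p = 0.0810) and 0.21 without controls 3 and 4.

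Groups without overlap were also found for Rpl14 (0.44 ± 0.15), Rpl19 (0.44 ± 0.15), Rpl26 (0.53 ± 0.16), Rpl34 (0.43 ± 0.14) and Rpl36a (0.45 ± 0.15). Without controls 3 and 4 these 5 genes gave 0.15 to 0.20. Rpl41, the shortest of the ribosomal proteins, had a large estimate but overlapping groups, at 13828, 15316, 7830 and 6366 normalized counts in the controls and 13502, 19424, 16718 and 20282 in the knockouts. Knockout 5 lay below controls 1 and 2, and the log2 difference was 0.77 ± 0.26 (limma adjusted p = 0.104) and 0.25 without controls 3 and 4.

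Rpl31, at the rim of the exit tunnel, had 13919, 12587, 9752 and 8799 normalized counts in the controls and 14212, 7977, 13160 and 9334 in the knockouts. Knockouts 6 and 8 were below knockouts 5 and 7, the groups overlapped, and the log2 difference was −0.03 ± 0.19 (limma adjusted p = 0.942) and −0.29 without controls 3 and 4. Rpl29, also of the large subunit, gave 0.02 ± 0.17 and Rpl4, a tunnel-lining protein, gave 0.06 ± 0.11. The copy Rps27rt gave 0.01 ± 0.23. These became −0.23 for Rpl29, −0.06 for Rpl4 and −0.34 for Rps27rt without controls 3 and 4. Another copy, Rps3a3, was scarce, with 63.3, 62.3, 86.2 and 59.1 normalized counts in the controls and 103.7, 98.0, 128.2 and 105.0 in the knockouts. Its groups did not overlap, control 3 was the highest control, and the log2 difference of 0.68 ± 0.23 (limma adjusted p = 0.0987) was 0.77 without controls 3 and 4. Of the Rps3a3 windows 65.1% occur in 8 other genes or pseudogenes, so this low count depends on how reads with several matches were counted. A further copy, Rps3a2, with 90.2% of windows shared, gave 0.20 ± 0.18, and 0.016 without controls 3 and 4.

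The stalk recruits and activates translation factors, with Rplp0 as its base and Rplp1 and Rplp2 as its arms. Rplp1 had 40518, 42456, 23910 and 23231 normalized counts in the controls and 44588, 47468, 50791 and 48425 in the knockouts. Rplp2 had 21314, 20159, 12357 and 11737 in the controls and 23353, 24428, 23767 and 25628 in the knockouts. In both genes all knockouts lay above all controls, including controls 1 and 2. The log2 differences were 0.61 ± 0.18 for Rplp1 (limma adjusted p = 0.0817) and 0.62 ± 0.18 for Rplp2 (limma adjusted p = 0.0810). They were 0.20 for Rplp1 and 0.23 for Rplp2 without controls 3 and 4. Rplp0, with 60038, 56957, 43813 and 40263 in the controls and 58651, 55622, 57968 and 56988 in the knockouts, had overlapping groups. Its log2 difference was 0.21 ± 0.13 (limma adjusted p = 0.325) and turned to −0.03 without controls 3 and 4.

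Rpl3 had the smallest p of all members. Its gene lies on chromosome 15 from 80077791 to 80091868 on the minus strand (GRCm38). Rpl3 had 4294, 4228, 3521 and 3224 normalized counts in the controls and 5011, 5152, 5175 and 5836 in the knockouts. Every knockout was above every control, and controls 3 and 4 were the lowest. The log2 difference was 0.48 ± 0.12 (SE; limma adjusted p = 0.0796), 0.31 ± 0.10 without controls 3 and 4, 0.28 ± 0.09 with the length and GC trend removed and 0.24 ± 0.10 with both. The limma adjusted p was 0.0242 without control 2, 0.0337 without control 1, 0.0406 with quality weights, 0.196 without control 4 and 0.251 without control 3. Of the 50-base windows of the Rpl3 transcript, 85.6% occur in 26 other genes or pseudogenes, so its count depends on how reads with several matches were treated, which is not given in the sources used here.

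Rpl3l lies on chromosome 17 from 24727820 to 24736143 on the plus strand, and none of its 50-base windows occurs in another transcript. It had 49302, 48556, 39078 and 41041 normalized counts in the controls and 46649, 49330, 47583 and 49156 in the knockouts. Controls 1 and 2 lay among the knockouts, and controls 3 and 4 were low. The log2 difference was 0.12 ± 0.11 (limma adjusted p = 0.494) and −0.02 without controls 3 and 4.

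The ratio of Rpl3l to Rpl3 compares both genes within a library, and their transcripts are of nearly equal length (1375 and 1351 bases). The log2 ratio was 3.52, 3.52, 3.47 and 3.67 in the controls and 3.22, 3.26, 3.20 and 3.07 in the knockouts. The groups did not overlap, and controls 3 and 4 lay on either side of controls 1 and 2. The difference was −0.36 (−0.33 without controls 3 and 4), with an exact two-sided permutation p of 0.0286, the smallest possible, and 0.229 after Benjamini-Hochberg adjustment over 8 pairs. It therefore did not pass the correction, although all 4 knockouts were lower than all 4 controls. With 8 pairs, a single pair at the smallest possible p cannot pass, so this outcome does not bear on the ratio. Per kb, the counted level of Rpl3l was 11.5 ± 0.699 times that of Rpl3 in the controls and 8.97 ± 0.486 times in the knockouts (SD, n = 4 each).

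**Figure D5:**
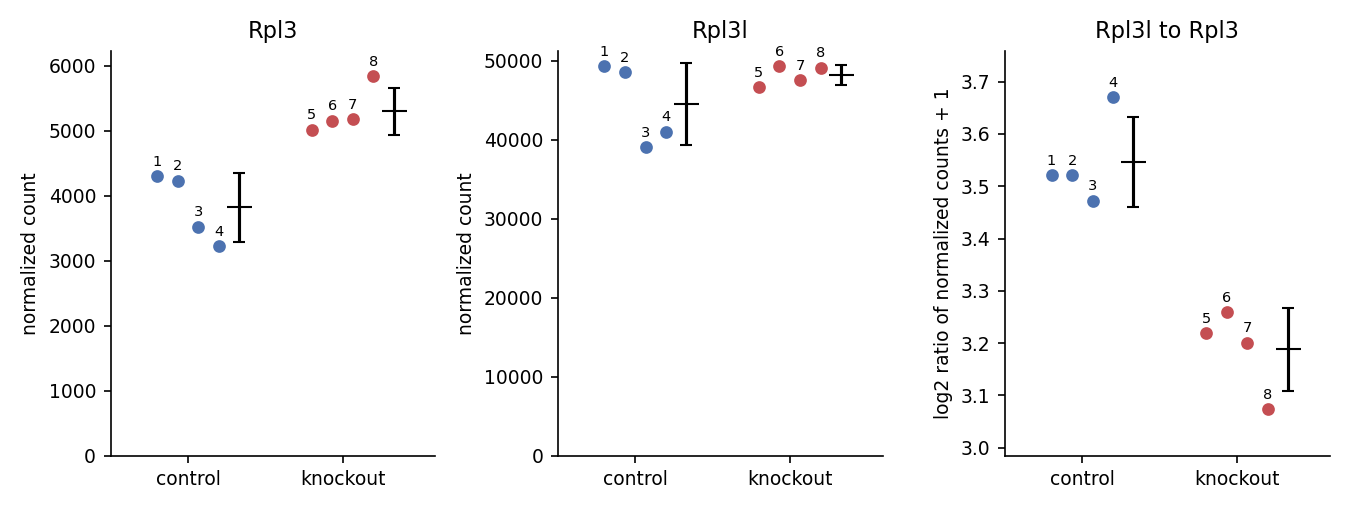
Normalized counts of Rpl3 and Rpl3l and the log2 ratio of Rpl3l to Rpl3 in each library (points, numbered by library; bars are mean ± SD, n = 4). The 4 knockouts lie above the controls for Rpl3, overlap them for Rpl3l, and below them for the ratio, at 3.07 to 3.26 against 3.47 to 3.67.

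No ratio of the other pairs tested passed the correction either. Their exact permutation p ranged from 0.0571 to 0.857, above the smallest possible, and their groups overlapped. Rps27l, a p53-responsive paralog of Rps27, had log2 ratios to its partner of −0.99, −1.17, −1.01 and −0.92 in the controls and −1.22, −1.23, −1.13 and −1.18 in the knockouts. The groups overlapped at control 2, and the difference was −0.17 (exact permutation p = 0.0571, adjusted 0.229) and −0.11 without controls 3 and 4. Rpl22l1, whose start window is printed above, had log2 ratios to Rpl22 of −2.07, −2.10, −2.50 and −2.06 in the controls and −2.33, −1.86, −2.01 and −1.73 in the knockouts. That difference was 0.20 (exact permutation p = 0.286, adjusted 0.381) and 0.098 without controls 3 and 4.

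Rps4l to Rps4x differed by 0.19 (exact permutation p = 0.229, adjusted 0.381) and Rpl7l1 to Rpl7 by −0.12 (exact permutation p = 0.257, adjusted 0.381). The differences were 0.0039 and −0.028 without controls 3 and 4. Rpl39l and Rpl36al were too scarce for a precise ratio: Rpl39l had 3.17 to 26.1 normalized counts in the controls and 11.0 to 48.5 in the knockouts, and Rpl36al had 3.39 to 50.7 and 16.8 to 25.6. In these libraries 3 reads correspond to 2.04 to 3.87 normalized counts. Eef1a2, the elongation factor form of adult muscle, was compared with Eef1a1 in the same family of tests. The log2 ratio was 2.89, 2.58, 2.56 and 2.78 in the controls and 2.65, 2.24, 2.41 and 2.29 in the knockouts, with overlapping groups and a difference of −0.31 (exact permutation p = 0.0857, adjusted 0.229; −0.34 without controls 3 and 4).

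The machinery around the ribosome was counted from 4 fixed lists, and none of their genes passed an adjusted p of 0.05. Beside the counts below, 50.3% of all genes had estimates above 0, and at an unadjusted p under 0.05 13.6% were higher and 13.3% lower. These last shares were 4.34% and 3.61% without controls 3 and 4.

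Other mRNAs known for the oligopyrimidine tract had a median of 0.34, with 13 of 14 estimates above 0 and 6 higher at an unadjusted p under 0.05. The median was 0.04 without controls 3 and 4, with 9 of 14 above 0 and 1 higher at that p. Fau, which encodes the ribosomal protein Rps30 as a fusion, gave 0.55 ± 0.19 (0.13 without controls 3 and 4). Btf3, a subunit of the nascent chain complex, gave 0.46 ± 0.13 (0.23 without them), and the snoRNA host Snhg8 gave 0.45 ± 0.18 (0.12 without them).

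Ribosome biogenesis genes were divided, 36 of 68 above 0 and 32 below with a median of 0.02, and at an unadjusted p under 0.05 the list had 15 higher and 7 lower genes. It had 1 higher and 0 lower without controls 3 and 4, with a median of −0.0062. Fbl, the methyltransferase of box C/D particles, gave 0.52 ± 0.13 (0.30 without these controls) and Rrp9 gave 0.46 ± 0.14 (0.22 without them). Tsr1, a small subunit assembly factor, gave −0.75 ± 0.22 (−0.32 without them).

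Translation factors were likewise divided, 28 of 52 above 0 with a median of 0.05, and had 8 higher and 9 lower genes at that p. Both shares lie near those of all genes, and without controls 3 and 4 the counts were 2 and 1. The exchange factor subunits Eef1b2 and Eef1d gave 0.62 ± 0.17 and 0.50 ± 0.14 (0.29 and 0.28 without these controls), and the recycling factor Abce1 gave −0.50 ± 0.14 (−0.27 without them).

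Regulators of translation and ribosome synthesis had a median of −0.24, with 17 of 24 below 0 and 10 lower at an unadjusted p under 0.05. Without controls 3 and 4 the median was −0.11 and 5 were lower at that p. Mtor gave −0.75 ± 0.17, and Tsc1 and Tsc2, which restrain it, gave −0.73 ± 0.19 and −0.61 ± 0.15. Without these controls Mtor gave −0.40, Tsc1 −0.34 and Tsc2 −0.41. The median transcript length was 3860 bases for the regulators, 1195 for the other oligopyrimidine mRNAs and 706 for the ribosomal protein genes.

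Macrophage and fibro-adipogenic progenitor markers mostly had higher estimates in the knockouts. Endothelial markers were divided, with 4 of 7 estimates below 0 (median −0.10). At an unadjusted p under 0.05 in limma, however, 3 endothelial markers were higher (Cldn5, Egfl7 and Emcn) and 0 lower. Of all genes 13.6% were higher and 13.3% lower at that p. Without controls 3 and 4, 5 of 7 endothelial estimates were above 0 (median 0.13), and 0 were higher or lower at that p. Estimates were also above 0 for 7 of 8 satellite cell and myoblast markers and 7 of 10 slow and oxidative fibre markers. The same held for 4 of 5 erythroid and 4 of 5 tested T, B and NK cell markers. For fast glycolytic fibres 5 of 10 were above 0. In whole muscle the number of cells of a type and the RNA per cell cannot be told apart. All 13 macrophage markers had estimates above 0 (median 0.64, and 0.48 without controls 3 and 4), and their summed normalized count ranged from 9454 to 13900 in the controls and from 13906 to 22362 in the knockouts. The groups overlapped in the mean log2 deviation of these markers from their own means, at −0.21 in knockout 6 and −0.12 in control 2. For the fibro-adipogenic progenitor list 10 of 11 estimates were above 0 (median 0.44, and 0.29 without controls 3 and 4), with sums of 162209 to 200031 in the controls and 203265 to 276046 in the knockouts. Their mean deviation overlapped too, at −0.13 in knockout 6 and −0.07 in control 1. Gsn and Dcn had the highest counts of this list, and Pdgfra gave 0.01 ± 0.12. No marker of either list was at 0 in every library. The heart list summed to 922 to 1552 in 7 libraries and to 12074 in knockout 8, with 8 of its 10 genes tested. The part of these cells in the ribosomal protein differences was not tested.

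The knockouts were not alike among themselves, a pattern noticed after the values were seen. Knockouts 6 and 8 minus knockouts 5 and 7 gave a log2 difference above 0 in 52 of 88 members and below 0 in 36, with a range of −1.24 to 0.51. Rpl31 (−0.66) and Rpl29 (−0.51) were lower in knockouts 6 and 8. Rps20 (0.51), Rpl22l1 (0.45) and Rpl41 (0.40) were higher in them. These 5 genes therefore differed among knockouts by at least 0.40, and 31 of 88 members by less than 0.1.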

How the data were processed

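Total RNA (Norgen Biotek kit, NEBNext Ultra II, per the labels' protocols) was sequenced as 4 control and 4 knockout libraries. The submitters' processing notes name cutadapt, FastQC, STAR, HTSeq, DESeq2 and build GRCm38. Tool versions and settings were absent from the sources used here. The deposited table holds log2 values of normalized count + 1 made by the authors. On the linear scale 100% of values were whole multiples of 1 read (tolerance 0.1), which gave the depths. Spreadsheet dates were turned back into 27 gene names.

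Groups were compared with limma 3.58.1 (R 4.3.3; trend and robust options) on the deposited log2 values, for the 15657 genes whose mean normalized count reached 10, with Benjamini-Hochberg adjustment over all of them. Paralog ratios were tested with exact two-sided permutation tests. A gene's transcript was the principal one in GENCODE M21, and promoters were the first RefSeq entry. The trend on length and GC content was a loess fit (span 0.5) in each library. In simulated data 29.9%, 56.7% and 78.1% of genes changed 1.5-, 2- and 4-fold were called, and 9 of 117 calls were false (15652 genes). The simulated noise was independent for each gene and library, without a shift shared by many genes as in controls 3 and 4. These rates therefore may not hold for the real libraries. The members, lists and pairs were chosen with earlier results of these data known. Named were the paralog pairs, the stalk, the 6 smallest p in each direction, the 4 estimates nearest 0, the 3 highest and lowest levels, and the 3 smallest p of each list. A gene that this rule names is not reported here. Alternatives covered the test, weights, scaling, filter, pseudocount, trend and left-out libraries.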

Additional observations from a re-analysis of the deposited data

Results flagged for a closer look

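In 116 groups of 4 values, a single library stood far from the other 3 in 4 cases, and chance gives about 1 in 20. The normalized count of Btf3 was 13030 in knockout 7. The log2 ratio of Rpl22l1 to Rpl22 was −2.50 in control 3, against −2.10 to −2.06 in the other controls. The mean deviation of the translation factors from their own means was 0.064 in knockout 6. The mean deviation of the heart markers was 3.94 in knockout 8, against −0.62 to −0.50 in the other knockouts.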

How the results depend on the processing

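The count of members past an adjusted p of 0.05 in limma was 0, and 13 with quality weights (7.67% of all genes). Leaving out 1 library gave 0 to 36, with 36 without control 1 and without control 2 (11% and 13.1% of all genes). At an unadjusted p under 0.05, 50 members were higher, where 13.6% of all genes were. The 50 became 29 without the trend and robust options and 19 with the length and GC trend removed (11.5% of all genes). They became 5 without controls 3 and 4 (4.34% of all genes) and 2 without these and knockout 8. They became 2 with the trend removed and controls 3 and 4 left out (below, with both), where 3.65% of all genes were higher. Leaving out 1 library gave 24 (control 3) to 67, and 28 without control 4. Counts at this p printed without a share of all genes cannot be read as particular to the members. With both, 35 estimates were above 0. The members' median of 0.39 became 0.10 with the trend removed, 0.069 without controls 3 and 4, 0.059 also without knockout 8, and −0.027 with both. In the last 3 settings in turn the median of the translation factor list was −0.012, −0.000458 and −0.028. In all 4 the median of the other oligopyrimidine mRNA list was 0.13, 0.039, 0.078 and −0.0083, and that of the translation and ribosome regulator list −0.075, −0.11, −0.088 and −0.084.

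Signs turned as follows, not counting changes where both estimates lay within 1 SE of 0. With the trend removed, Rpl3l gave −0.14, Rps27l −0.044, Rpl10 −0.078, Rpl7l1 −0.098, Rps27rt −0.25 and Rpl29 −0.38. Without controls 3 and 4, Rpl3l gave −0.023, Rplp0 −0.029, Rps27l −0.075, Rpl36al −0.92, Rps27rt −0.34 and Rpl29 −0.23. Also without knockout 8, Rpl3l gave −0.032, Rplp0 −0.027, Rps27l −0.054, Rpl36al −1.01, Rpl7 −0.000467 and Rps27rt −0.27. With both, Rpl3l gave −0.11, Rplp0 −0.10, Rpl22 −0.030, Rps27l −0.17, Rps27 −0.068, Rpl36al −1.01, Rpl10 −0.069, Rps4l −0.057, Rps4x −0.022, Rpl7 −0.045, Rps27rt −0.44 and Rpl29 −0.36. The Rpl36al to Rpl36a ratio difference, −0.16 in all libraries, ranged from −0.72 to 0.26 with 1 library left out (0.038 without control 2). Rps4l to Rps4x turned to −0.035 with both, and Rpl7l1 to Rpl7 to 0.037 without knockout 8 and controls 3 and 4. The cause was not tested. Of 879 combinations of 42 named genes and 21 settings, 791 counted as unchanged. These kept sign and side of the threshold, or changed sign with both estimates within 1 SE of 0. No paired analysis was possible because the groups share no replicate numbers. Counts of a few reads limit Rpl24, Rpl39l and Rpl36al.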

Other observations

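Over the 8 libraries, the genes outside the family whose log2 values followed Rpl3 most closely were Anp32a (Pearson r = 0.993), Plau (0.990), Unc119 (0.990), 2310009A05Rik (0.988) and Ap2s1 (0.987). For Rpl3l they were Cdc34 (0.993), Fam53a (0.991), Gng8 (0.990), C2 (0.989) and Ciao1 (0.989). Rpl3 had a median r of 0.88 with the other members. These values describe 8 libraries in 2 groups and share the low level of controls 3 and 4.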
